A study of Homo sapiens with 3 samples.

Results

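The enzymes that make and break down proline were followed by RNA-seq in DU145, an androgen-independent line derived from human prostate cancer. They are 7 of the 58735 genes listed: PRODH, AC007325.2, PRODH2, PYCR1, ALDH18A1, ALDH4A1 and OAT. PRODH was chosen by its measured rise in these libraries and AC007325.2 as its near copy, so their values are given as a description with no test. The other 5 were chosen for their place in the pathway. There was 1 control library, and the labels of the other 2 read PD-L1 knockdown 1 and 2. By the methods, control cells carried the empty vector pLKO.1, knockdown cells were made with lentiviral shRNA, and stable lines were selected with puromycin. All of them were DU145 cells without any other treatment in the labels, and the control had no replicate. The 2 knockdown libraries came from lines that the methods call PD-L1sh1/2, with 1 shRNA sequence listed. Each line was sequenced as 1 library. The p-values of the main edgeR fit therefore rest on the spread between these 2 libraries, pooled over genes. A gene's own disagreement between its 2 libraries does not set its p-value. In the pooled spread, a difference between the lines and technical error cannot be told apart.

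The control held 14733088 counts, knockdown 1 held 14738298 and knockdown 2 held 15786457, and values are given in this order below. CD274, the gene of PD-L1, had 204, 213 and 224 counts, so no decrease of the targeted transcript was measured (log2 fold change 0.05, SE 0.20, adjusted p = 0.947 by edgeR's quasi-likelihood test after Benjamini-Hochberg). The paper reports that the DU145 knockdown was verified as PD-L1 protein by Western blot, whereas these counts are RNA. The count column used for the control carries the name RBM45 in its heading. Knockdown 1 and 2 are therefore names taken from the labels only. Among the markers of prostate epithelium, KLK2, KLK3, HOXB13, KRT5 and TMPRSS2 were at 0 counts in all 3 libraries, whereas KRT8 had 16068, 17914 and 19056 counts. The series text names the thyroid line BCPAP. Among the thyroid markers, NKX2-1 had 1833, 2118 and 2590 counts and FOXE1 had 738, 645 and 720 counts, while TG, TSHR and SLC5A5 had at most 15 counts in any library. Of 9 leukocyte markers 2 had enough counts to be tested, with a summed level of 0.679 to 1.22 CPM per library, and of 10 fibroblast and endothelial markers 3 did, with 7.26 to 9.82 CPM. The part of these values in the results below was not tested.

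Proline is made in mitochondria from glutamate or from ornithine. ALDH18A1 (pyrroline-5-carboxylate synthase) reduces glutamate, OAT (ornithine aminotransferase) converts ornithine, and both routes meet at pyrroline-5-carboxylate, which PYCR1 reduces to proline. In breakdown, PRODH (proline dehydrogenase) oxidises proline at the inner mitochondrial membrane and passes electrons to the respiratory chain, and ALDH4A1 oxidises the product to glutamate. PRODH2 acts mainly on hydroxyproline and is known from liver and kidney. PRODH lies in the 22q11.2 region.

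PRODH has a near copy and a pseudogene in the annotation, which bears on how its reads can be counted. PRODH (ENSG00000100033) lies on the minus strand of chromosome 22 (GRCh38), from 18912777 to 18936553. AC007325.2 (ENSG00000277196), described in the files as proline dehydrogenase 1, lies on the minus strand of the sequence KI270734.1, from 138082 to 161852. All 15 exons of the transcript PRODH-215 have the same length as those of the longer AC007325.2 transcript, as have 11 of the 14 introns, and each transcript is 2405 bases long with 1800 coding bases. The base sequence of AC007325.2 was not analysed here. The pseudogene AC007663.1 lies on the plus strand of chromosome 22, from 20299760 to 20313216. Of its 1240 transcribed bases, 963 aligned to PRODH-215 and 919 of these were identical, or 95.4%. Coding exon 11 of PRODH-215 (chr22:18919451-18919597, minus strand) and the matching stretch of AC007663.1 (chr22:20306679-20306825, plus strand) are shown because they give the likeness of the copies base by base. Capitals mark the 2 of 147 bases that differ, and the sequences are those of GENCODE 29.
PRODH: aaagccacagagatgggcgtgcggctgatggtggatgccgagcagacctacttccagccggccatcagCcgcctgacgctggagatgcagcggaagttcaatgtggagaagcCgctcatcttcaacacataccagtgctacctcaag
AC007663.1: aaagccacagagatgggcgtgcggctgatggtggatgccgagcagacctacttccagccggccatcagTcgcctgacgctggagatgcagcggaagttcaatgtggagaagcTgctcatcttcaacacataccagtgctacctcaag
By contrast, the coding sequences of PRODH-215 and of PRODH2 were identical at 57.8% of 1578 aligned bases.

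PRODH counts were low in the control and high in both libraries labelled PD-L1 knockdown. The gene had 8 counts in the control, 127 in knockdown 1 and 165 in knockdown 2, or 0.543, 8.62 and 10.5 CPM, which is the count scaled to a common library total. The ratio to the control was 15.9 for knockdown 1, with an exact 95% interval of 7.81 to 37.6, and 19.2 for knockdown 2, with an interval of 9.54 to 45.3. These intervals cover counting error only. The fitted log2 fold change was 4.12, which ranked 124 among the 19849 genes tested, from the highest value down, and 1 among the 12242 that averaged 50 or more counts. PRODH was picked for this rise and reaches that average only through the knockdown libraries, so the ranks are a description. Knockdown 2 exceeded knockdown 1 by 1.21 times, with an interval of 0.957 to 1.54. Both knockdown libraries lay far above the control, and the interval of their ratio included 1.

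AC007325.2 was somewhat lower in both libraries than in the control. It had 194 counts in the control, 158 in knockdown 1 and 167 in knockdown 2, or 13.2, 10.7 and 10.6 CPM. Its ratio to the control was 0.814 (0.656 to 1.01) in knockdown 1 and 0.803 (0.649 to 0.993) in knockdown 2. In CPM, PRODH was 8.07 higher than the control in knockdown 1 and 9.91 higher in knockdown 2, while AC007325.2 differed from the control by -2.45 and -2.59. The copy therefore carried most reads of the pair in the control, and the reads were about evenly split in the other libraries.

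For reads that were counted on either gene, the sum of PRODH and AC007325.2 does not depend on how they were divided. It was 202 counts in the control, 285 in knockdown 1 and 332 in knockdown 2. The ratio to the control was 1.41 (1.17 to 1.70) in knockdown 1 and 1.53 (1.28 to 1.84) in knockdown 2. With the sum in place of the 2 genes, the fitted log2 fold change was 0.56. With the pseudogene, which had 10, 22 and 16 counts, the sum was 212, 307 and 348 counts.

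The share of the pair counted on PRODH was 3.96% in the control, with a Wilson 95% interval of 2.02% to 7.62%. It was 44.6% (38.9% to 50.4%) in knockdown 1 and 49.7% (44.4% to 55.0%) in knockdown 2. DGCR6, the neighbour that overlaps PRODH, also has a copy on KI270734.1, AC007325.4. DGCR6 took 2.94% (0.521% to 14.9%), 3.13% (0.554% to 15.7%) and 2.91% (0.995% to 8.22%) of its pair, intervals that overlap one another. These shares rest on 1, 1 and 3 counts of DGCR6. The related gene DGCR6L, left out of this pair, had 841, 1117 and 1215 counts. Its ratio to the control was 1.33 (1.21 to 1.45) in knockdown 1 and 1.35 (1.23 to 1.47) in knockdown 2. AC007325.4 itself had 33, 31 and 100 counts, so that only knockdown 2 stood above the control. Whether reads that match both copies were counted once, divided or left out is not given in the sources used here. PRODH and AC007325.2 are therefore uncertain as single genes in these counts. By quantitative PCR, the paper reports PRODH as significantly higher after PD-L1 knockdown. Whether its primers tell PRODH from AC007325.2 or AC007663.1 was not tested here.

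**Figure D1:**
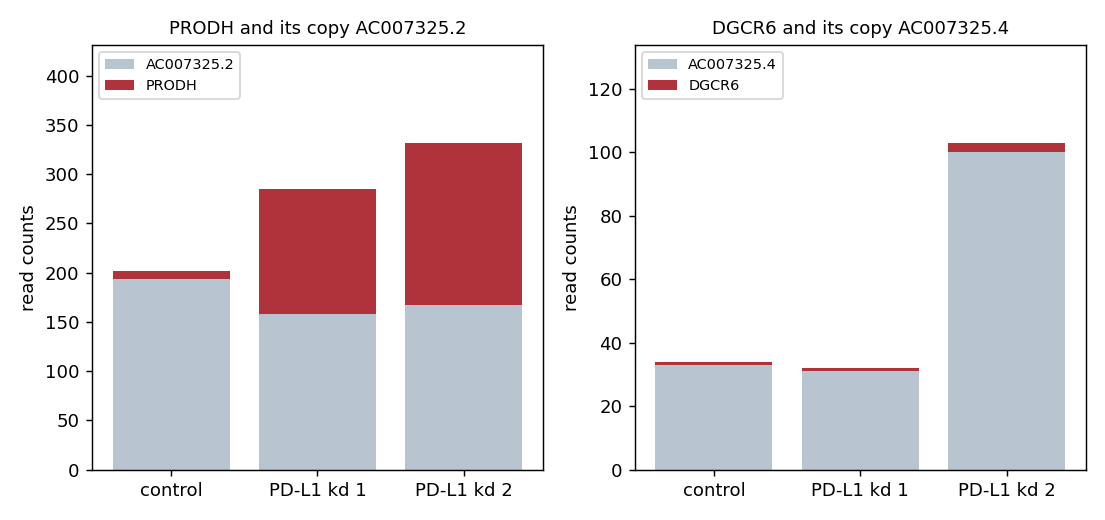
Read counts (y axis) of PRODH and its copy AC007325.2 (left) and of DGCR6 and its copy AC007325.4 (right) in the control and in PD-L1 knockdown (kd) 1 and 2, stacked. PRODH had 8, 127 and 165 counts beside a copy of 194, 158 and 167 counts, whereas DGCR6 had 1, 1 and 3 counts.

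Genes around both loci were read for the same change. The other genes that overlap PRODH were AC007326.5, with 1, 6 and 4 counts, and AC007326.4, with 0 counts in all libraries. The next genes on either side, LINC01663 and AC007326.2, had 0, 0, 0 and 0, 2, 0 counts. On KI270734.1, AC007325.1 and AC007325.3 each had 1, 0 and 1 counts. Over all 19849 genes tested, 0.353% passed an edgeR adjusted p under 0.05 and 2.48% passed an unadjusted p under 0.05 with an absolute log2 fold change over 1. Of the 25 listed neighbours in 22q11.2 that could be tested, 0 passed the adjusted p in edgeR and 0 in DESeq2, and 8 had higher values at an unadjusted p under 0.05 (2 genes in DESeq2). Over all genes tested, 2329 or 11.7% had an unadjusted p under 0.05 in edgeR, in either direction. The median log2 fold change of these neighbours was 0.21, against 0.00 for all genes tested, and it was 0.08 once trends with GC content and length were removed. Before that removal, 23 of the 25 neighbours lay above 0 and 2 below. The highest values were 0.80 (SE 1.26) for TBX1, with 3, 5 and 6 counts, and 0.73 (SE 0.28) for GNB1L, with 69, 106 and 131 counts.

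**Figure D2:**
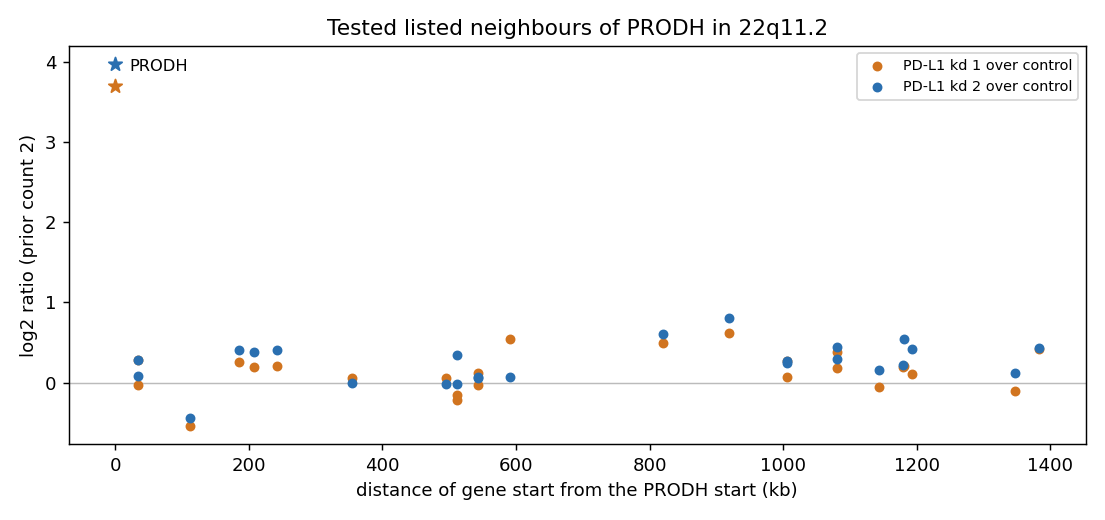
Log2 ratio to the control (y axis, log2 CPM with a prior count of 2) of the 25 tested neighbours in 22q11.2, by the distance of their start from that of PRODH in kb (x axis). Dots are neighbours and stars are PRODH, for knockdown (kd) 1 and 2. PRODH stands at 3.70 and 3.97, and GNB1L is at 0.73 in the fit of both libraries.

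ALDH4A1, the enzyme after PRODH in breakdown, was higher in both libraries but did not pass the test. It had 290 counts in the control, 365 in knockdown 1 and 389 in knockdown 2, or 19.7, 24.8 and 24.6 CPM. The log2 fold change was 0.33 (SE 0.18, edgeR's quasi-likelihood adjusted p = 0.461), with a 95% interval of -0.02 to 0.68, and it was 0.16 once trends with GC content and length were removed. By counting error alone each library exceeded the control, with ratios of 1.26 (1.08 to 1.47) and 1.25 (1.07 to 1.46). The gene lies on the minus strand of chromosome 1, from 18871430 to 18902781, and AL080251.1, which overlaps it, had 0, 0 and 1 counts.

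PRODH2 was not detected, with 0 counts in all 3 libraries. A count of 0 allows up to 0.204, 0.204 and 0.190 CPM, taking 3 counts as the limit. Its promoter, at 250 bases before to 50 bases after the start on the minus strand (chr19:35812796-35813095, RefSeq, GRCh38.p14), holds 4 CpG, marked in capitals, and is shown beside that of ALDH18A1, a member with counts in all libraries.
PRODH2: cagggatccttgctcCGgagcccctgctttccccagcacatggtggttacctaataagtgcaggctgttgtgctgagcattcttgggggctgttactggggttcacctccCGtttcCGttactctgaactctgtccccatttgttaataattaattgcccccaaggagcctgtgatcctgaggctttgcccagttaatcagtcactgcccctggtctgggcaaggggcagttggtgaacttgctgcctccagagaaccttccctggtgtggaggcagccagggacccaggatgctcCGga
ALDH18A1: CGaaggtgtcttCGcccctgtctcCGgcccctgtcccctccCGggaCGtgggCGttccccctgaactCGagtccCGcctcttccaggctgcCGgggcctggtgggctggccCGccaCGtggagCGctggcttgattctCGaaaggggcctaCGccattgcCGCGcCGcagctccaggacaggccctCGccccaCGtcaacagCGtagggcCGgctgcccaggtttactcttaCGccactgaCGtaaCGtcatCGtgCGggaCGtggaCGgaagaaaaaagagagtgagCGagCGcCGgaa
The promoter of ALDH18A1 (chr10:95656662-95656961, minus strand) holds 31 CpG, and 79.3% of the 35116 promoters of the table hold fewer, against 24.5% for that of PRODH2. The promoter of OAT holds 33 CpG, and the 2 entries of ALDH4A1 hold 25 and 2, the latter fewer than that of PRODH2. Counts are per gene, so which entry of ALDH4A1 was in use was not tested. The letters CACGTG, an E-box read on both strands, are found once in the promoter of ALDH18A1 and in 7.26% of all promoters. The letters TGATGCAA, the core of an amino acid response element, are in 0 of the member promoters listed (ALDH18A1, OAT, PRODH2 and the 2 entries of ALDH4A1) and in 0.866% of all promoters.

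Of the enzymes of synthesis, PYCR1, ALDH18A1 and OAT did not pass the test. PYCR1 (chromosome 17, 81932384 to 81942412) had 1800, 1876 and 2189 counts, with a log2 fold change of 0.13 (SE 0.12, edgeR adjusted p = 0.726). Its value was -0.12 once trends with GC content and length were removed, so no direction is given for it. ALDH18A1 (chromosome 10, 95605929 to 95656706) had 1124, 1163 and 1037 counts, giving a log2 fold change of -0.07 (SE 0.13, edgeR adjusted p = 0.874). Knockdown 1 was at 1.03 times the control (0.952 to 1.12) and knockdown 2 at 0.861 times (0.791 to 0.938). OAT (chromosome 10, 124397303 to 124418976) had 1983, 1883 and 1522 counts, giving a log2 fold change of -0.26 (SE 0.12, edgeR adjusted p = 0.373). Its knockdown libraries differed from each other, at 0.755 times (0.705 to 0.808) from knockdown 1 to knockdown 2, so the value rests mainly on knockdown 2. MYADML2 overlaps PYCR1 on the same strand and had 15, 9 and 16 counts.

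**Figure D3:**
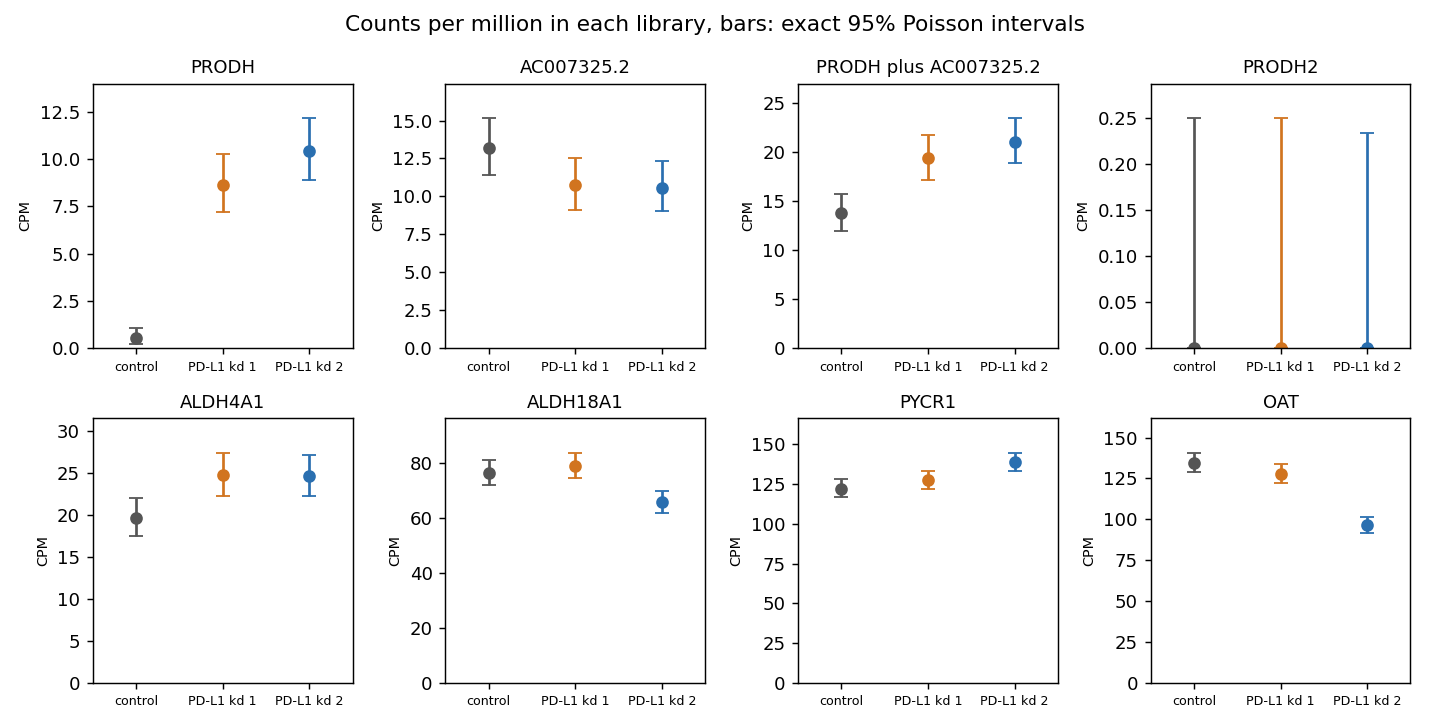
CPM (y axis, from 0, a scale for each panel) of the members and of the sum of PRODH and AC007325.2 in the control and in PD-L1 knockdown (kd) 1 and 2 (x axis). Points are single libraries and bars are exact 95% Poisson intervals. PRODH was at 0.543, 8.62 and 10.5 CPM, and OAT was at 96.4 CPM in knockdown 2 against 135 CPM in the control.

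Levels between genes were compared as FPKM, which divides by gene length. PYCR1 was highest, at 42.0, 44.0 and 48.0 FPKM, followed by OAT at 39.4, 37.6 and 28.4 FPKM and ALDH18A1 at 20.1, 20.9 and 17.4 FPKM. PYCR1 and OAT were close in the control and knockdown 1. ALDH4A1 was at 5.29, 6.69 and 6.67 FPKM and AC007325.2 at 5.43, 4.44 and 4.39 FPKM, and the order of these genes changed between the control and the other libraries. PRODH was at 0.0614, 0.979 and 1.19 FPKM. The listed length of PRODH is 8776 bases and that of its copy 2405, so FPKM divides PRODH counts by the longer length. FPKM understates PRODH beside its copy if the PRODH reads came from transcripts as short as the copy's, which was not tested. Per kilobase of 2405 bases, PRODH was at 0.226, 3.58 and 4.35 CPM and AC007325.2 at 5.48, 4.46 and 4.40. PYCR1 was thus 7.93, 6.57 and 7.19 times as high as ALDH4A1 in FPKM. The related reductase PYCR3 was lower than PYCR1, at 9.61, 10.6 and 10.2 FPKM.

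Most genes of the related lists did not pass either call rule. In the list of proline synthesis 0 of 5 genes passed either rule in edgeR and 0 in DESeq2, and OAT alone had an unadjusted p under 0.05. Of proline and hydroxyproline breakdown, PRODH alone passed, and it was selected on these libraries. Among the other 4 tested, 0 passed an edgeR rule, 0 an unadjusted p under 0.05 and 0 in DESeq2, and their log2 fold changes were 0.01 to 0.33. GOT2 was the most abundant of these, with 4147, 4158 and 4457 counts, followed by GRHPR and L3HYPDH. The median of these 4 genes was 0.12, against 0.00 for all genes.

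Of ornithine, arginine and polyamine genes, 0 of 16 passed an edgeR rule, 3 had an unadjusted p under 0.05, against 11.7% of all genes tested, and 0 passed the adjusted p in DESeq2. CKB (creatine kinase), the most abundant, had 9705, 10348 and 14505 counts, and OAZ1 and ODC1 of polyamine control followed. Of 14 glutamate and glutamine genes, GLS2, a mitochondrial glutaminase, passed the fold rule as a fall, with 23, 10 and 5 counts (log2 fold change -1.64, SE 0.72, edgeR adjusted p = 0.341). DESeq2 gave it an adjusted p of 1.00, and its log2 ratio was -1.91 without knockdown 1 and -1.05 without knockdown 2. Of 21 genes of the ATF4 amino acid response, SLC7A11, the cystine transporter subunit, fell and passed the adjusted p, with 2702, 2099 and 1505 counts (log2 fold change -0.62, SE 0.12, edgeR adjusted p = 0.000250). It was -0.36 with an adjusted p of 0.203 once trends with GC content and length were removed, and DESeq2 gave an adjusted p of 1.00. Without knockdown 1 the log2 ratio of SLC7A11 was -0.94, and without knockdown 2 it was -0.36. ATF4 itself had 4915, 5237 and 5277 counts.

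Of 13 genes of collagen prolyl hydroxylation, 10 proline peptidases, 10 proline transporters, 12 genes of the PPARG pathway, 9 genes around MYC and 14 electron transfer partners of proline dehydrogenase, 0 passed either rule in edgeR and 0 passed the adjusted p in DESeq2. At an unadjusted p under 0.05 in edgeR, 3 electron transfer genes, 3 peptidases, 3 transporters and 1 gene of collagen hydroxylation were found, and 0 of the PPARG and MYC lists, against 11.7% of all genes tested. The median log2 fold changes of these lists lay between -0.02 and 0.13.

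**Figure D4:**
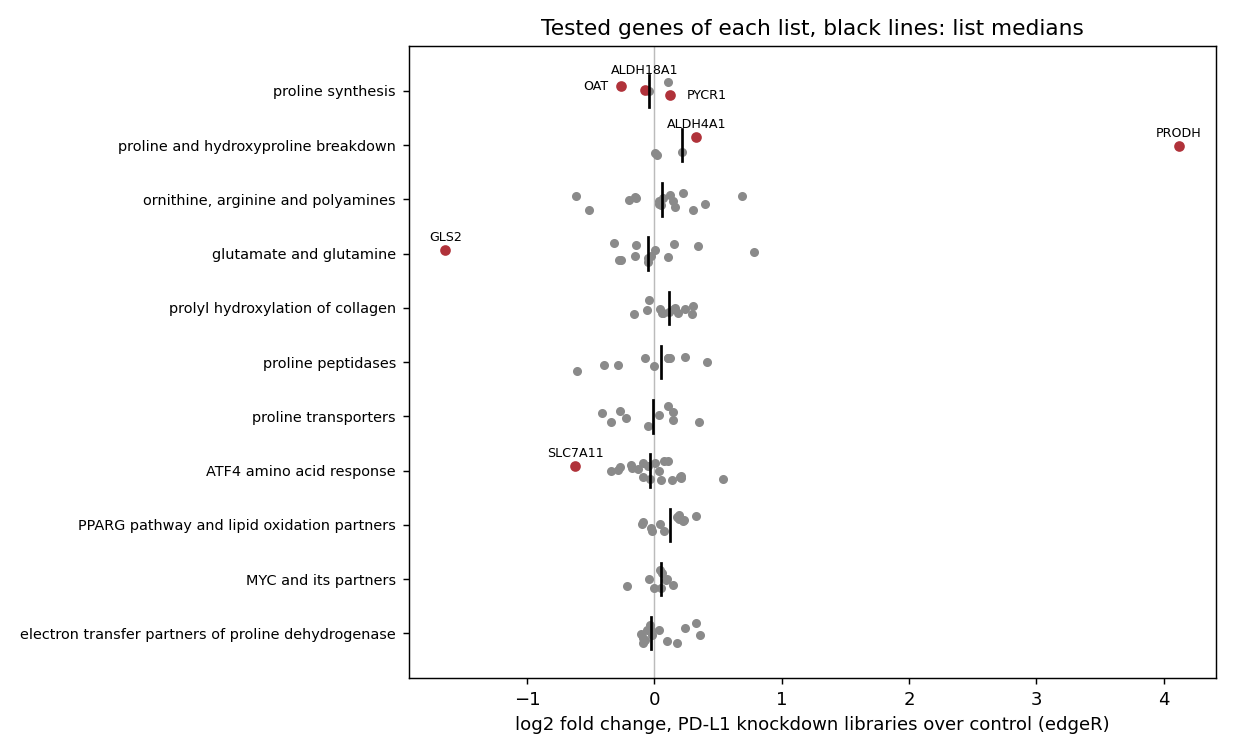
Log2 fold change of the 2 libraries labelled PD-L1 knockdown over the control (x axis, edgeR) of each tested gene in 11 lists (y axis). Dots are genes, red dots are members and the genes past a rule, and black lines are list medians. PRODH stands alone at 4.12, with GLS2 at -1.64 and SLC7A11 at -0.62 on the other side.

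The genes most like PRODH in their 2 log2 ratios to the control were found among the 12241 other genes averaging 50 or more counts. They were STAG3L1 (48, 145 and 236 counts, distance 2.81), RPL29P11 (34, 97 and 147 counts, 3.01), SPCS2P4 (45, 137 and 145 counts, 3.22), CD79A (60, 157 and 163 counts, 3.54) and KRTCAP3 (30, 68 and 88 counts, 3.63). The distance uses the ratios that PRODH was picked on, 3.70 and 3.97, and PRODH reaches the average of 50 counts only through the knockdown libraries, so the distances describe these genes and nothing more. RPL29P11 and SPCS2P4 are named as pseudogenes, whose reads can come from other copies. The paper also reports CD79A as significantly higher by quantitative PCR after PD-L1 knockdown.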

How the data were processed

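RNA-seq was deposited for 3 libraries of DU145 cells. The authors deposited raw read counts per gene, and FPKM values, each equal to count over gene length over a constant per library within 0.1% for 100% of values. The submitters' processing notes name Bowtie2 2.0.6, TopHat2 2.0.9, Cufflinks 2.1.1 and Cuffdiff 2.1.1, but the counter, strand setting and handling of reads with several matches are not given in the sources used here. All 58735 gene IDs and positions match GENCODE 29 (GRCh38).

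Genes with at least 10 counts in all entered edgeR 4.0.16 under R 4.3.3 (TMM, glmQLFit, glmQLFTest, Benjamini-Hochberg), 2 libraries against 1, with 1 residual degree of freedom. The spread comes from the 2 libraries labelled PD-L1 knockdown. The prior degrees of freedom were infinite in the main fit, so this spread was pooled over genes. DESeq2 1.42.0 was an alternative, with other normalizations, filters, a GC and length correction and libraries left out. Ratios of libraries use exact 95% intervals and shares Wilson intervals. PCR reads are not independent molecules, so these cover counting error only. The fit was tested on simulated data.

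The members and lists were chosen with earlier results of these data known. Named were all members, list genes that passed a rule (at most 3 a list), the 3 most abundant genes of the metabolic lists, the genes around PRODH and AC007325.2, the 5 genes most like PRODH, and CD274. GNB1L, TBX1, ATF4, KRT8, MYADML2, PYCR3, DGCR6L and the markers were named after their values were seen, as were the promoter motifs. The sequence of AC007325.2 was not analysed here, and some genes and a list are not reported here.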

Additional observations from a re-analysis of the deposited data

How the results depend on the processing

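No paired analysis was possible because the control has 1 library and shares fewer than 2 replicate numbers with the other group. The control has no replicate, so a deviation of that library would enter every comparison, and PRODH rests on 8 counts there. With DESeq2 in place of edgeR, the genes past the adjusted p fell from 70 to 6 and those past the fold rule from 492 to 46, and in the fixed lists from 2 to 1 under either rule. Removing trends with GC content and length left 29 genes past the adjusted p, 1 in the lists, and turned PYCR1 to -0.12. AC007325.2 was then at -0.33, with the length trend alone removed because its GC content was not available. The sum of PRODH and AC007325.2 was at 0.45, with the GC content and length of PRODH used for it. A mean of at least 20 counts left 135 genes past the fold rule and 1 in the lists, since fewer genes were tested. Summing PRODH and AC007325.2 left 1 listed gene under either rule, because PRODH no longer counts alone. Other causes were not tested. With either library labelled PD-L1 knockdown left out, a value with no test, log2 fold changes ran from -0.21 to 0.06 for ALDH18A1, 0.07 to 0.19 for PYCR1, -0.48 to -0.07 for OAT, 0.33 to 0.34 for ALDH4A1, 3.69 to 4.25 for PRODH, -0.31 to -0.29 for AC007325.2 and 0.50 to 0.62 for the sum. The values without knockdown 1 and 2 were first computed with a prior count of 2 (3.98 and 3.69 for PRODH). A smaller prior count, chosen after seeing the data because it is nearer to that of the fit, gave 4.25 and 3.97. ALDH18A1, PYCR1, OAT and ALDH4A1 did not pass the adjusted p under any alternative that gave a test.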
